A study of Mus musculus with 24 samples.

Results

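Ldhd, Glo1 and Hagh, the enzymes that make D-lactate from methylglyoxal and then oxidise it, were followed on 24 one-colour expression arrays of 7 mouse cell lines, as 3 of the 45547 gene or transcript names that the arrays measured. The members were found by mapping the RefSeq transcript of each probe to its symbol, which gave 5 probes, with 1 for Ldhd, 3 for Glo1 and 1 for Hagh. The members were chosen by the signal of Ldhd, which was higher in the line DB#2 than in the line M, so the differences of the 3 enzymes between these lines are given below as a description, with no test. The other comparisons with M used the same 3 M arrays, so their tests are not independent of that choice.

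The melanoma lines were B16F1-GFP-M (M, the parental cells, 3 arrays), B16F1-GFP-D (D, dormant cells recovered from mice of the same strain in an immunotherapy-based model of minimal residual disease, 4 arrays), and the lines B16F1-GFP-DB#1, -DB#2 and -DB#3 (DB#1 with 4 arrays, DB#2 and DB#3 with 3 each), a further generation taken from the brain. All 5 carry GFP and were amplified in culture before RNA was extracted, so each stands for 1 expanded line rather than for cells in the animal. The myeloid lines were labelled M0_p20 (M0, 4 arrays) and J365_p20 (J365, 3 arrays), and were used as a second pair of lines from the same platform. The melanoma labels lack the tag p20, and the labels do not say what it means. The labels do not say whether the arrays of a line came from separate cultures, so p-values measure only the spread between these samples, which may be technical.

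Methylglyoxal is a reactive dicarbonyl that forms as a by-product of glycolysis and glycates proteins and DNA. Glo1 (glyoxalase I) converts the adduct of methylglyoxal and glutathione to S-D-lactoylglutathione, and Hagh (glyoxalase II) hydrolyses it to D-lactate, which frees the glutathione. Ldhd, the mitochondrial D-lactate dehydrogenase, oxidises D-lactate to pyruvate and hands the electrons to cytochrome c, whereas L-lactate, the bulk product of glycolysis, is handled by the Ldha and Ldhb subunits.

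The promoters of Ldhd, whose signal differed between melanoma lines, and of Glo1, whose differences there did not pass the test, are shown as the 250 bases before the start of the RefSeq transcript (GRCm38.p6), 5′ to 3′ on the strand of the gene, with motif matches in capitals. Ldhd lies on chromosome 8 (chr8:111630337-111630586, minus strand) and Glo1 on chromosome 17 (chr17:30612660-30612909, minus strand).

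Ldhd promoter: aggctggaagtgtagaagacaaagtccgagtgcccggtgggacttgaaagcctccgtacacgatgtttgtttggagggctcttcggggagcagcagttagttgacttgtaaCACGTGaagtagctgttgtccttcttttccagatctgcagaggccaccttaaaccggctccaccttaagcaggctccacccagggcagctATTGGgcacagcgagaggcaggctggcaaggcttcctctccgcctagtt

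Glo1 promoter: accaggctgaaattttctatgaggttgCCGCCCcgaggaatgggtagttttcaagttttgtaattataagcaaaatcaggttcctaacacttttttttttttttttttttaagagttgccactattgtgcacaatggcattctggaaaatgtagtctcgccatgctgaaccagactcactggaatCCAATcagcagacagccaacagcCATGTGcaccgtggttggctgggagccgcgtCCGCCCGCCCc

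The capitals in the Ldhd promoter mark an E-box (CACGTG) that starts at -139 from the transcript start and a CCAAT box read on the other strand that starts at -49. The same E-box letters stood in 6.02% of 32851 mouse promoters of this length, and CCAAT in 33.8%. The capitals in the Glo1 promoter mark the core of the M-box (CATGTG) at -42, a CCAAT box at -65 and 3 GC boxes (GGGCGG, read on the other strand), of which the pair nearest the start overlap. The M-box core stood in 12.3% of promoters and the GC box in 32.7%. Hagh, also on chromosome 17, had 2 listed starts whose promoters both held a CCAAT box and at least 1 GC box, and neither an E-box nor an M-box core. The core of the antioxidant response element (TGACNNNGC, in 10.2% of promoters), the TATA box (TATAAA, 12.4%) and the cyclic AMP response element (TGACGTCA, 1.55%) were searched on both strands and had no match in these 4 windows. A match describes letters only, and no binding was measured.

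Signals are given as the log2 of the array's processed signal less the 75th percentile of that array, so 0 is the level of a rather bright probe and 1 unit is a 2-fold step. The share of probes well above background ran from 43.6% to 53.8% on 23 arrays and was 89.9% on replicate 3 of D, while replicate 1 of D had the lowest share. All 10 melanocyte markers (among them Tyr, Dct and Mlana) were above background on each of the 17 melanoma arrays, and 11 of 12 blood cell markers were on each of the 7 myeloid arrays. On the melanoma arrays 4 to 10 of the 12 blood markers were above background, at a mean signal of -3.77 to -1.68, against 1.29 to 1.80 on the myeloid arrays. Of 8 brain markers 3 to 8 were above background on the melanoma arrays, at a mean signal of -3.93 to -1.45. On the melanoma arrays both lists were highest in replicate 3 of D, and their part in the results was not tested. Of 5 liver and kidney markers, from tissues rich in Ldhd, 4 were above background in replicate 3 of D and 0 or 1 on each other melanoma array. The Ldhd differences that rest on D, and those of Glo1, Hagh and Slc16a3 in D against M, are therefore also given without replicates 1 and 3.

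Ldhd, the last enzyme of the route, had the widest range of the 3 genes. In M its signal was -3.52, -3.60 and -3.85, dim but above background on every array. In D it was -0.58, -1.50, -1.41 and -1.50 for replicates 1 to 4. In bulk RNA, more cells with Ldhd and more Ldhd per cell cannot be told apart. The D arrays all lay above the M arrays, and replicate 1 stood apart from the other D arrays, which lay close together.

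The difference between D and M was 2.41 ± 0.21 (SE), a 5.33-fold higher signal in D with a limma adjusted p of 2.2e-07. Within the 3 slides, each of which held arrays of every line, the difference was 2.82, 2.20 and 2.02. Without replicates 1 and 3 of D it was 2.16, and with a normexp background correction, which pulls dim signals together, it was 1.24 (limma adjusted p 0.000224).

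The brain-derived lines had more Ldhd than D. In DB#1 the signal was 0.64, 0.13, 0.10 and -0.12, in DB#3 it was 0.69, 0.30 and 0.20, and in DB#2 it was 1.67, 1.77 and 1.84. Every array of the 3 brain-derived lines lay above every D array, and every DB#2 array above every array of DB#1 and DB#3, while DB#1 and DB#3 overlapped. In order of their means the lines ran M (-3.66 ± 0.17, SD, n = 3), D (-1.24 ± 0.45, n = 4), DB#1 (0.19 ± 0.32, n = 4), DB#3 (0.39 ± 0.26, n = 3) and DB#2 (1.76 ± 0.084, n = 3). The processed signal on the linear scale went from 23.1 on the dimmest M array to 1648 on the brightest DB#2 array.

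Against M, Ldhd was 3.84 ± 0.21 (SE) higher in DB#1, 14.4-fold, with a limma adjusted p of 1.07e-10. It was 4.05 ± 0.23 higher in DB#3, 16.6-fold, with a limma adjusted p of 1.65e-10. In DB#2, the contrast that chose the gene, the difference was 5.42 ± 0.23 or 42.8-fold. The smallest of the 9 differences from M within a slide for these lines was 3.52 in DB#1, and the largest was 5.62 in DB#2. With the normexp correction the differences were 2.45 in DB#1, 2.64 in DB#3 and 3.88 in DB#2.

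Against D, Ldhd was 1.43 ± 0.20 (SE) higher in DB#1, 2.70-fold, with a limma adjusted p of 0.000383. It was 1.64 ± 0.21 higher in DB#3, 3.12-fold, with a limma adjusted p of 0.000282. In DB#2 the difference from D was 3.01 ± 0.21 or 8.04-fold, given as a description since it uses the DB#2 arrays that chose the gene. Without replicates 1 and 3 of D these differences were 1.68, 1.89 and 3.26. When the fit held only the arrays of the lines compared, the limma adjusted p was 0.126 for DB#1 and 0.200 for DB#3, so both calls rested on the spread shared over all 7 lines.

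In the myeloid lines Ldhd was not well above background on any array, at -6.17 to -6.49 in M0 and -6.37 to -6.80 in J365, so J365 and M0 were not compared. Set against the dimmest signals that counted as above background on the M0 arrays, Ldhd was at least 1.35-fold higher in M. It entered that comparison only through the M arrays, so no p is given. On the same basis it was at least 7.19-fold higher in D, 19.4-fold in DB#1, 22.4-fold in DB#3 and 57.8-fold in DB#2. M thus stood little above the detection limit.

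**Figure D1:**
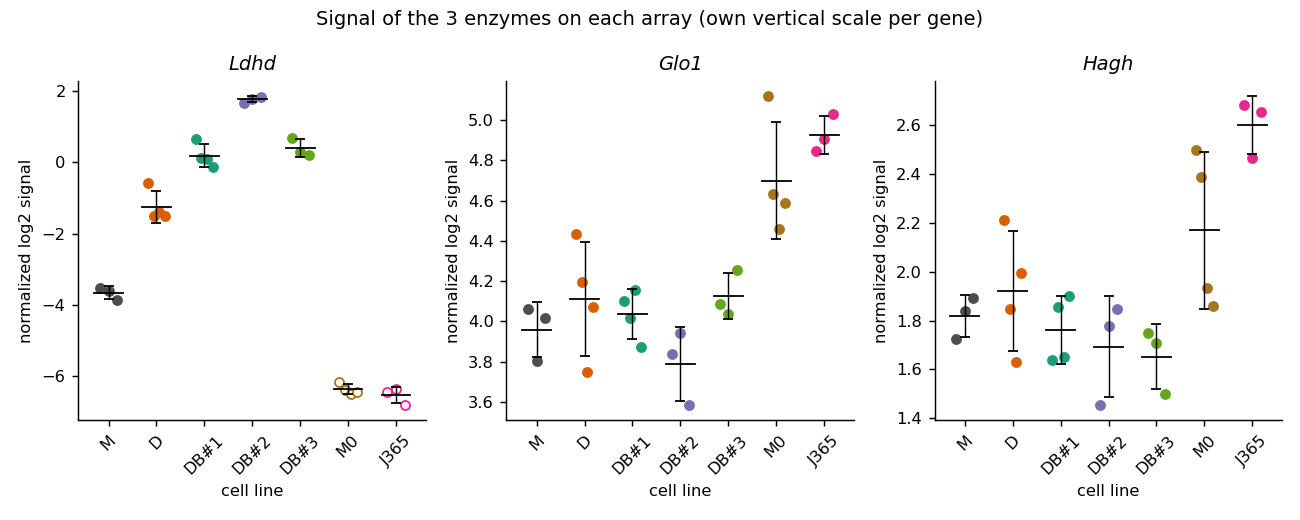
Normalized log2 signal of Ldhd, Glo1 and Hagh on each array by cell line (vertical axis, own scale per gene; horizontal axis, line). Points are arrays, hollow where the probe was not well above background, and bars are the mean and SD. Ldhd rises from -3.66 in M to 1.76 in DB#2 and is hollow in M0 and J365, while the means of Glo1 and Hagh in the 5 melanoma lines span 0.34 and 0.27.

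Glo1, the first enzyme of the route, was bright in all 7 lines and above background on all 24 arrays. Its signal was 4.06, 3.80 and 4.01 in M and 4.43, 4.20, 3.75 and 4.07 in D. It was 4.10, 4.02, 4.16 and 3.87 in DB#1, 3.84, 3.94 and 3.59 in DB#2, and 4.09, 4.04 and 4.26 in DB#3. Every pair of melanoma lines overlapped except DB#2 and DB#3, whose means, the lowest and the highest, were 0.34 or 1.26-fold apart. That pair was not tested.

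The difference in Glo1 between D and M was 0.15, with a 95% interval of -0.19 to 0.50 and a limma adjusted p of 0.871, and was 0.17 without replicates 1 and 3 of D. In DB#1 it was 0.079 (interval -0.26 to 0.42, limma adjusted p 0.982), and in DB#3 0.17 (interval -0.20 to 0.54, limma adjusted p 0.949). DB#2 differed from M by -0.17 ± 0.18 (SE), described only. The other 2 Glo1 probes differed by more in DB#1 against M, at 0.24 and 0.26 with no overlap of the arrays. In DB#3 they gave 0.15 and 0.27, the latter without overlap, and in D 0.20 and 0.27 with overlap. They were not tested on their own. Differences inside these intervals are not excluded with 3 or 4 arrays a line. The intervals are not adjusted for the number of genes tested, while the calls are, so larger differences could also go uncalled. DB#2 was 0.32 lower than D in Glo1, which missed the threshold (limma adjusted p 0.333) but passed it after quantile normalization at a difference of -0.41 (limma adjusted p 0.0140).

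Hagh, the second enzyme, was also above background on all 24 arrays. Its signal was 1.73, 1.84 and 1.89 in M and 2.21, 1.85, 1.63 and 1.99 in D. It was 1.64, 1.86, 1.65 and 1.90 in DB#1, 1.46, 1.78 and 1.85 in DB#2, and 1.75, 1.71 and 1.50 in DB#3. Every pair of melanoma lines overlapped, with means that spanned 0.27, or 1.20-fold, from DB#3 to D.

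Hagh differed between D and M by 0.10 (95% interval -0.25 to 0.45, limma adjusted p 0.934, and 0.10 also without replicates 1 and 3 of D), between DB#1 and M by -0.057 (-0.40 to 0.29, limma adjusted p 0.993), and between DB#3 and M by -0.17 (-0.54 to 0.21, limma adjusted p 0.955). The difference between DB#2 and M was -0.13 ± 0.18 (SE), described only. None of these passed the test, and none of the lines differed from D in Hagh by more than 0.27 (DB#3, limma adjusted p 0.998).

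Counted together, 1 of the 3 enzymes was called higher and none lower in D against M, where 1.38% of 20145 genes tested were called higher and 1.58% lower. The same count held for DB#1, beside 2.05% called higher and 1.65% lower, and for DB#3, beside 1.61% and 1.15%. Of all genes tested in DB#2 against M, 2.15% were called higher and 1.28% lower, and nothing is read from the members there. Against D, 1 of 3 was called in DB#1 (0.475% of all genes tested) and 1 of 3 in DB#3 (0.369%), and neither Glo1 nor Hagh in DB#2 (6.34%). The called enzyme was Ldhd each time, whose signal chose the set, so the counts do not show that the route as a whole was called more often. At an unadjusted p under 0.05 no melanoma comparison tested here added Glo1 or Hagh.

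**Figure D2:**
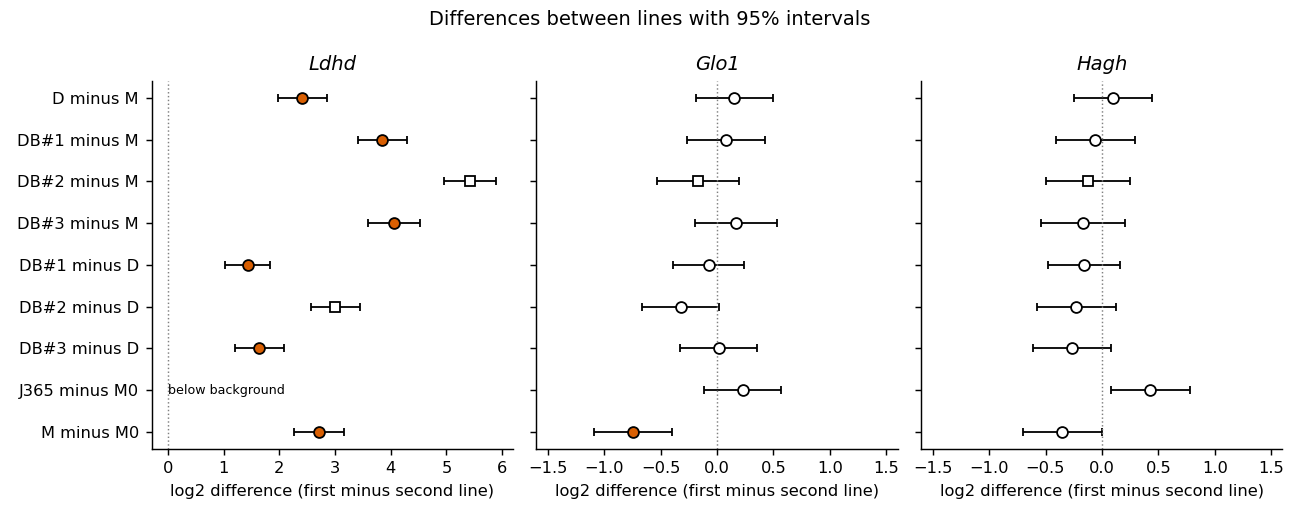
Log2 difference between lines (horizontal axis, first minus second line, own scale for Ldhd) for Ldhd, Glo1 and Hagh in 9 comparisons (vertical axis), with 95% intervals from limma. Filled circles passed an adjusted p of 0.05, hollow circles did not, and squares are described without a test. Ldhd in M minus M0 is set against signals that were not above background, and its circle is no result. The Ldhd differences between melanoma lines lie between 1.43 and 5.42, while the Glo1 and Hagh intervals between melanoma lines all cross 0.

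Glo1 also differed between the melanoma line M and the myeloid line M0, which were compared as the first line of each model. Glo1 in M0 was 5.12, 4.63, 4.46 and 4.59 for replicates 1 to 4, and in J365 it was 4.85, 4.90 and 5.03. The M0 array called replicate 4 has no number in its label, and that number is a name only. Every myeloid array thus lay above every melanoma array on this probe of Glo1. On another Glo1 probe the models overlapped, with 2.32 in M0 replicate 3 and 2.58 in D replicate 1. M was 0.74 ± 0.17 (SE) lower than M0, or 1.67-fold, with a limma adjusted p of 0.000638. The other 2 Glo1 probes gave -1.13 and -0.61, with no overlap between M and M0 on any of the 3 probes. Cell type and whatever else differs between these lines cannot be told apart.

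Hagh in M0 was 2.50, 2.39, 1.93 and 1.86 for replicates 1 to 4, and in J365 it was 2.68, 2.46 and 2.65. M was 0.35 ± 0.17 (SE) lower than M0, which missed the threshold (limma adjusted p 0.0791). That difference passed it after quantile normalization (-0.42, limma adjusted p 0.00996), with slide as a block (-0.39, limma adjusted p 0.0244), and when M0 replicate 4 (-0.46) or replicate 3 (-0.43) was left out. Of these 2 enzymes 1 was called, lower in M than in M0, where 27.7% of 22426 genes tested were called higher and 30.8% lower, so such calls were common among all genes.

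J365 and M0 differed in Glo1 by 0.23 (95% interval -0.12 to 0.57, limma adjusted p 0.873) and in Hagh by 0.43 ± 0.17 (SE, limma adjusted p 0.361). Neither of these 2 passed the test, beside 0.721% of 20660 genes called higher and 0.745% lower, and Hagh alone had an unadjusted p under 0.05. The difference between D and M less that between J365 and M0 was -0.075 in Glo1 (limma adjusted p 0.999) and -0.33 in Hagh (limma adjusted p 0.836), and neither passed the test.

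The wider pathway was read from 6 lists of 70 genes, 69 of them on the array: relatives of the glyoxalases, other dicarbonyl enzymes, 2-hydroxyacid dehydrogenases with cytochrome c, lactate enzymes with their carriers, glutathione supply, and Nrf2 with its classical targets. In D against M, 1 of 58 list genes tested was called higher and none lower, and the median difference was -0.067 beside -0.012 over all genes tested. DB#1 also had 1 of 58 called higher (median 0.019 beside 0.037), and DB#3 had none of 57 by limma, with 3 at an unadjusted p under 0.05 (median 0.046 beside 0.029). With the replicate number as a block, DB#1 had 2 of 58 called. In DB#2, the contrast that chose Ldhd, the fit put 1 of 58 past the threshold (median -0.021 beside 0.017), and nothing is read from that count. The shares in D and DB#1 lay near those over all genes. Without replicates 1 and 3 of D, D again had 1 list gene called.

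The called gene in D and DB#1 was Slc16a3 (MCT4), the carrier that exports lactate from glycolytic cells. Its signal was 0.78, 0.32 and 1.04 in M, 2.75, 3.24, 1.67 and 2.04 in D, and 1.96, 1.94, 2.31 and 2.79 in DB#1. All D and DB#1 arrays lay above all M arrays. The difference from M was 1.71 ± 0.34 (SE) in D (limma adjusted p 0.00554) and 1.54 ± 0.34 in DB#1 (limma adjusted p 0.0102). Without M replicate 2 it was 1.52 (limma adjusted p 0.0530) and 1.34 (limma adjusted p 0.0889), and with only the arrays of D and M the limma adjusted p was 0.153. Without replicates 1 and 3 of D the difference in D was 1.93 (limma adjusted p 0.00723).

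Slc16a3 did not follow Ldhd into the line with the most Ldhd. In DB#2 it was 0.72, -0.52 and -0.36, a difference from M of -0.76 ± 0.37 (SE), and in DB#3 it was 2.22, 1.38 and 1.93 (difference 1.13, limma adjusted p 0.147).

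The list gene that DB#2 singled out was Ldhb, the lactate dehydrogenase subunit of oxidative tissues. Its signal was 4.91, 4.61 and 4.97 in M and 6.36, 6.72 and 6.25 in DB#2, a difference of 1.61 ± 0.20 (SE), given without its p since this contrast chose Ldhd. In DB#3 it was 5.27, 5.33 and 5.69 (difference 0.60, limma adjusted p 0.155), in D the difference was 0.093 and in DB#1 0.20. Ldha, the subunit of glycolytic tissues, differed from M by -0.060 in D, 0.17 in DB#1, 0.0040 in DB#2 and 0.12 in DB#3, none of them called where tested. Neither of the 2 probes of Ldhb was above background on any myeloid array, as was also the case for Ldhd.

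The other proteins that act on D-2-hydroxyacids or next to these enzymes were not called. D2hgdh, which oxidises D-2-hydroxyglutarate and belongs to the same flavoprotein family as Ldhd, differed from M by 0.017 in D, 0.053 in DB#1, 0.19 in DB#2 and 0.055 in DB#3. Cycs, the somatic cytochrome c that accepts the electrons of Ldhd, differed by 0.15, 0.34, 0.66 and 0.26 in the same order. Park7 (DJ-1) differed by 0.10, 0.15, 0.23 and 0.18. None of the D, DB#1 and DB#3 values of these genes was called. No gene of the lists for glyoxalase relatives, dicarbonyl enzymes, hydroxyacid dehydrogenases, glutathione supply or Nrf2 targets was called by limma in D, DB#1 or DB#3 against M, while 5 of 48 in D, 6 of 48 in DB#1 and 1 of 47 in DB#3 had an unadjusted p under 0.05. No share over all genes is set beside the unadjusted counts of list genes, so nothing is read from them. The limma calls have such shares, with 1.38% of all genes rising and 1.58% falling in D. For DB#1 these were 2.05% and 1.65%, and for DB#3 they were 1.61% and 1.15%. At such shares 47 or 48 genes would hold few calls, so their absence does not show that these lists were unchanged.

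**Figure D3:**
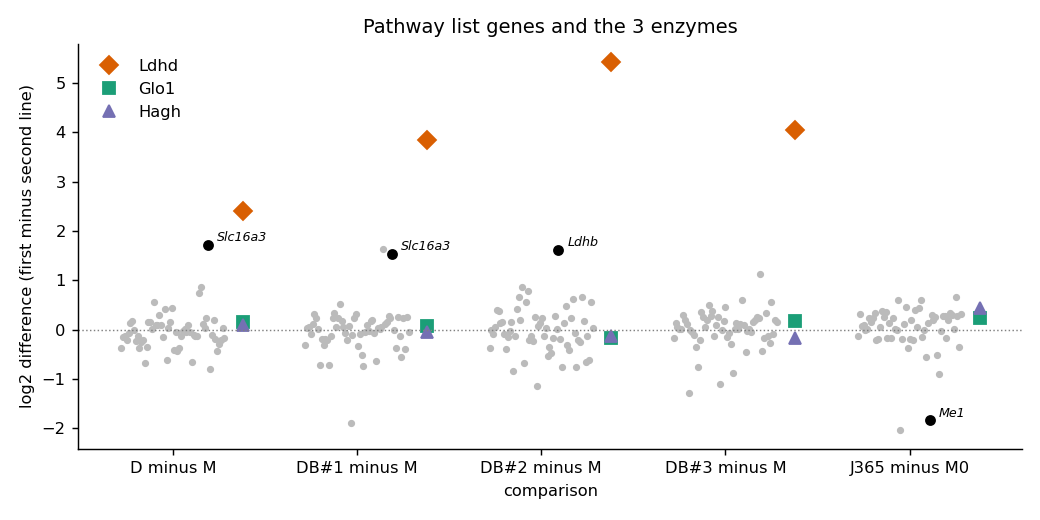
Log2 difference (vertical axis, first minus second line) of the tested genes of the 6 pathway lists in 5 comparisons (horizontal axis). Grey points were not called, black points with a name were called by limma (nothing is read from DB#2 minus M), and the larger symbols are Ldhd, Glo1 and Hagh. Ldhd lies above every list gene in each melanoma comparison with M, and Glo1 and Hagh lie among the grey points. Ldhd was chosen for its rise in DB#2 against M, and these comparisons share the M arrays, so its place is no result.

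In J365 against M0, 1 of 57 list genes was called and it was lower: Me1, the cytosolic malic enzyme that makes NADPH, fell by 1.84 on the log2 scale (limma adjusted p 0.000633, with 0.0781 when only these lines were fitted). The 1 of 57 stood beside 0.745% of all genes called lower. M against M0 had 21 of 62 list genes higher and 14 lower, beside 27.7% and 30.8% of all genes. By size the leading genes were Ldhb and Chac1, a glutathione-degrading enzyme, at least 484-fold and 330-fold higher in M (at least 81.3-fold on the other probe of Ldhb), and Glod5, a relative of Glo1, at least 79.1-fold lower. Ldhb, Chac1 and Glod5 were not above background on any array of the dimmer line. They entered the test only through the line where they were bright, so no p is given and nothing is read from their calls. The counts above include such genes. Grhpr, which reduces glyoxylate and hydroxypyruvate and was above background on every array of M and M0, differed by -3.18 ± 0.32 (SE, limma adjusted p 3.66e-08).

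The surroundings of Ldhd on chromosome 8 were read from its neighbours in the RefSeq order. Of the 5 protein-coding genes on either side, from Rfwd3 to Tmem170, 9 were tested and none was called by limma in D, DB#1 or DB#3 against M. Their differences ran from -0.26 to 0.26 in D, from -0.37 to 0.27 in DB#1, from -0.15 to 0.43 in DB#2 and from -0.29 to 0.27 in DB#3, with 1 unadjusted p under 0.05, in DB#1. Among the tested neighbours of Glo1 and Hagh none was called in these 3 comparisons either, where 1 neighbour of Glo1 in D and 3 of Hagh in DB#1 had an unadjusted p under 0.05. The unadjusted counts of neighbours also have no share over all genes beside them. Calls were rare over the whole array too, at 1.38% up and 1.58% down in D against M. The matching shares were 2.05% and 1.65% for DB#1, and 1.61% and 1.15% for DB#3. So few neighbours could easily hold no call, and the lack of one is not read as a lack of change.

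Over all 24 arrays and 14311 genes, the patterns most like Ldhd were those of Aig1, Nol4 and Mlip (Pearson r of 0.97 for each). Aig1 encodes a hydrolase of fatty acid esters of hydroxy fatty acids. These values describe arrays that fall into both models, so they partly restate that the genes were dim in the myeloid lines. Nol4 and Mlip were also not above background on any M array, and Nol4 was above background on 2 of the 4 D arrays. For Glo1 the leading genes were Gtf2h4 (0.976), Zfp106 (0.968) and Cpsf3 (0.967), and for Hagh they included Osbpl2 (0.897) and Nek6 (0.885).

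Over the 17 melanoma arrays alone, a choice made after the values were seen, the leading genes for Ldhd were Tdrp (0.958), Aig1 (0.957) and Tnfrsf11b (0.948), the last encoding osteoprotegerin and not above background on any array of M or D. The means of Aig1 ran from -2.15 in M to -1.05 in D, -0.32 in DB#1, -0.30 in DB#3 and 0.57 in DB#2, the order of Ldhd. Replicate 1 of D read 0.13 in Aig1, above every DB#1 array, while the other D arrays read -1.46, -1.47 and -1.41. The Aig1 arrays of DB#1 and DB#3 overlapped. Tdrp was not above background in M and had means of -3.37 in D, -2.83 in DB#1, -2.69 in DB#3 and -1.39 in DB#2. On these 17 arrays the signal of Ldhd had r = -0.11 with Glo1 and -0.29 with Hagh, and Glo1 had r = 0.24 with Hagh. These are descriptions over arrays of 5 lines. The genes named above were picked as the highest correlations, so they are no yardstick for these values.

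**Figure D4:**
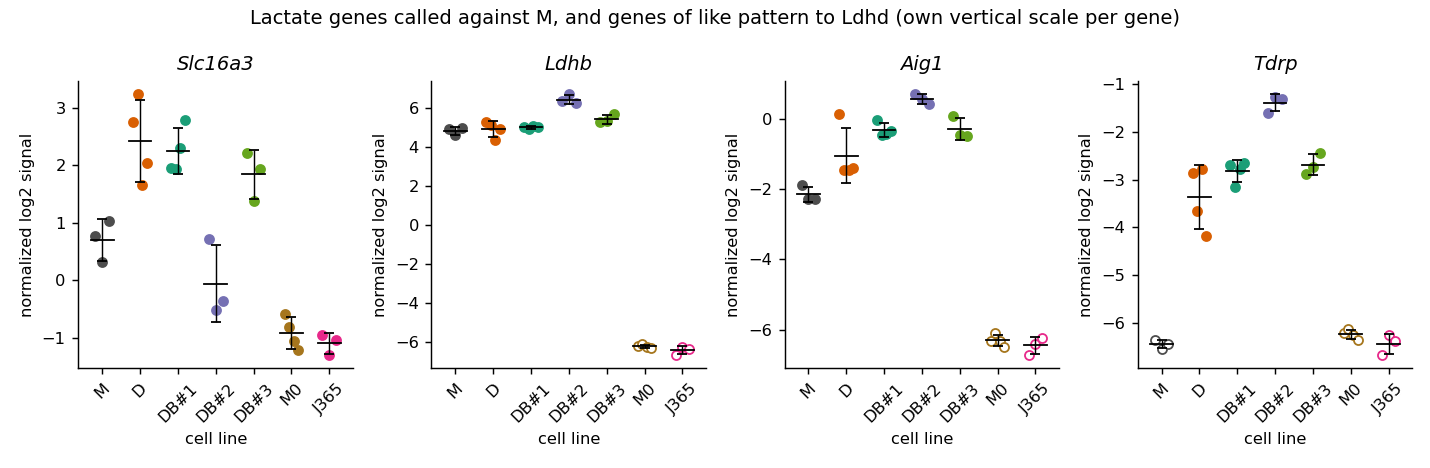
Normalized log2 signal (vertical axis, own scale per gene) of Slc16a3, Ldhb, Aig1 and Tdrp on each array by cell line (horizontal axis). Points are arrays, hollow where not well above background, and bars are the mean and SD. Slc16a3 is lowest of the melanoma lines in DB#2, where Ldhb, Aig1 and Tdrp are highest.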

How the data were processed

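Total RNA of 24 samples of 7 mouse lines was labelled with Cy3 and hybridised to one-colour Agilent arrays, 8 to a slide on 3 slides. The authors scanned them and made the values with Agilent Feature Extraction 10.7.3.1 (named in the submitters' processing notes); the deposited intensity used here is the processed signal, which is background-subtracted and not scaled between arrays, and the array annotation is on mm9. The deposited value table held the same intensity for 1511424 of 1511424 values. No 2 arrays were identical and no spot was saturated. For arrays, precision is limited by the number of arrays a line.

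From these, log2 signals less each array's 75th percentile were computed over 56488 probes, after control spots and 117 probes with outlier spots were left out. A gene was read from its probe with the highest mean signal, and symbols came from the RefSeq table of GRCm38.p6. All 24 arrays entered 1 limma 3.58.1 fit (R 4.3.3) with a term per line and 17 residual degrees of freedom. A gene was tested in a comparison where all arrays of either line read it well above background, with Benjamini-Hochberg adjustment within a comparison and a threshold of 0.05. The fit was tested on simulated data. Same-numbered arrays of M and DB#1 deviated together (correlations of 0.65, 0.57 and 0.91), so for these lines the numbers were taken, from the data and not the labels, to pair the arrays. No other lines compared within a model had 3 or more such pairs that all correlated above 0.1. Arrays of different lines of 1 model on the same slide also deviated together, at a mean correlation of 0.55 over 42 pairs. The main fit held neither the replicate pairs nor the slide as a block, and fits with each are among the alternatives. A bound ("at least") sets a probe that is not well above background at the lowest signal of the probes that were, per array. The study's methods name no test for the arrays.

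The members, the lists and the tests were chosen with earlier results of these data known. Named genes were the 3 members, the list genes with the 2 largest called differences in each direction, the 3 genes of highest correlation with each member (1 of them is not reported here) and 5 neighbours on either side; Ldha, D2hgdh, Cycs and Park7 were chosen after their values were seen. Alternatives were quantile normalization, a normexp background (offset 50, on the median signals, since the mean signal was not used here), other scalings, no filter or a stricter one, the mean of all probes, slide or replicate number as a block, fits of only the lines compared and leaving out arrays. The position of the probes within the transcripts was not analysed here.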

Additional observations from a re-analysis of the deposited data

Results flagged for a closer look

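The level of Ldhd in D was set apart by 1 array. Replicate 1 of D read -0.58 and the other 3 arrays read -1.50, -1.41 and -1.50, so that the gap to the nearest array was 0.899 of the whole range, above Dixon's critical value for 4 arrays. Of 15 sets of arrays of a member probe examined, and 6 of array-wide measures, 1 was set apart in this way, and chance does so in about 5% of such sets. That array also had the lowest share of probes well above background (43.6%), and its part in the Ldhd value was not tested. Without it Ldhd was 2.19 higher in D than in M (limma adjusted p 1.79e-07).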

How the results depend on the processing

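The called differences of Ldhd kept their direction under each alternative run. With normexp Ldhd moved to 3.88 in DB#2 against M and 2.64 in DB#2 against D, and with only the lines compared it was 1.43 in DB#1 against D (limma adjusted p 0.126) and 1.64 in DB#3 against D (limma adjusted p 0.200). Leaving out each array in turn gave 2.19 to 2.50 in D against M.

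Some uncalled differences of Glo1 and Hagh changed sign. With no scaling between arrays Hagh was 0.018 in DB#1 and 0.11 in DB#2 against M, and Glo1 was 0.066 in DB#2 against M. Glo1 in DB#3 against D was -0.085 after quantile normalization, -0.066 with the percentile over probes detected on all arrays, -0.20 with no scaling, -0.014 as the mean of all probes, -0.0059 without replicates 1 and 3 of D (chosen after seeing the data), and -0.11 to 0.12 when each array was left out. Glo1 in DB#1 against D ran from -0.20 to 0.033 on leaving out each array, with 0.033 without D replicate 1. Glo1 in DB#2 against D passed the threshold at -0.41 under both quantile normalization and the percentile over detected probes. Hagh in M against M0 passed it at -0.42 under both of these and at -0.39 with slide as a block, and ran from -0.46 to -0.24 on leaving out arrays.

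The number of list genes called moved from 1 to 4, 3 and 0 in D against M (quantile, detected probes, only the lines compared), from 1 to 4, 2, 2 and 6 in DB#1 (quantile, detected probes, replicate block, only the lines compared), and from 1 to 3, 2, 2, 8, 3 and 2 in DB#2 (quantile, normexp, detected probes, no scaling, slide block, replicate block). It moved from 0 to 1 in DB#3 with detected probes, no scaling, slide block and only the lines compared, and from 1 to 2, 2, 2 and 3 in J365 against M0 (quantile, detected probes, no scaling, slide block). Leaving out arrays gave 0 to 3 in D (0 without M replicate 2, 3 without D replicate 1), 0 to 1 in DB#1 (0 without M replicate 2) and 1 to 2 in J365 against M0 (2 without M0 replicate 1). The causes were not tested.

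Over all genes, no scaling gave 407 higher and 140 lower in D against M (277 and 319 in the report's setting), with a median difference of 0.17, and 1122 and 133 in DB#2 against M (451 and 269), with a median of 0.25. In DB#2 against M the percentile over detected probes gave 521 and 474, and in J365 against M0 no scaling gave 258 and 113 (149 and 154), with a median of 0.17. Against D the split also turned with scaling: DB#3 had 18 higher and 42 lower with no scaling and 35 and 41 with detected probes (48 and 26), and DB#2 had 885 and 1026 with detected probes (806 and 504). Over the alternatives the genes called ran from 135 to 1083 in D against M (596), 452 to 1255 in DB#2 (720), 518 to 1163 in DB#1 (765), 370 to 809 in DB#3 (569), 136 to 539 in J365 against M0 (303), 34 to 125 in DB#1 against D (96), 300 to 2367 in DB#2 against D (1310) and 11 to 118 in DB#3 against D (74). The fewest in D against M and in the comparisons with D came from fitting only the lines compared. The most in D, DB#1 and DB#3 against M came with slide as a block.

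With a replicate block, Ldhd was 2.51 higher in D than in M (limma adjusted p 3.52e-07), and no call of a member changed. The numbers were not taken to pair M and D, so this fit is no check of pairing for them. In DB#1 against M, where the numbers were taken to pair the arrays, Ldhd was 3.95 with the block. For other lines the same numbers gave lower correlations of deviations in at least 1 pair, such as 0.095, -0.43 and -0.49 for M and D and 0.85, -0.55 and -0.57 for M and DB#2, or fewer than 3 pairs, so the numbers were not taken to pair those arrays. The number of arrays limits the precision, and dim signals such as Ldhd in M lie near the background.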
